A study of Drosophila melanogaster with 6 samples.

Results

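The 300 transcript probes described here were those that differed most between a pair of head preparations of the same mutant genotype. They were chosen by their signal on those preparations, from 19955 candidate probes, which are the probes on the array that carry a FlyBase transcript identifier (FBtr) and were well above background on the third Top3b26 array. For each probe the log2 signal was averaged over its spots and expressed relative to the median of the array, and this value is called its level. The members are the 300 probes with the largest level on Top3b26 3 minus the level on Top3b26 2, and they stand for 257 of the 15995 transcript identifiers on the array. Because Top3b26 2 and Top3b26 3 chose the members, values on these arrays are given as a description, fits that include them are reported as counts without a reading, and the test between genotypes uses only Top3b26 1 and the WT arrays.

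The study compared adult Drosophila heads of the mutant Top3b26, an allele of Top3b made by remobilizing a P-element, with heads of the wild-type stock w1118 (WT). The labels give the w1118 background for both groups. Each group had 3 independently prepared RNA samples, each from heads that were frozen and sieved, and each sample was hybridized to 1 one-colour Cy3 array. The labels name no other allele or agent, no sex and no age beyond adult.

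Top3b encodes a type IA topoisomerase that can pass strands of DNA and of RNA through one another, and in flies it works in a complex with TDRD3. Freezing makes flies brittle, so that heads break off and can be separated from bodies and appendages by size on sieves. A head preparation is a mixture of neurons, glia, photoreceptors, muscle, fat body and cuticle cells, and in bulk RNA a transcript carried by fewer cells and a transcript with less RNA per cell cannot be told apart.

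None of the 300 members could be given a gene name, since the array files list only their transcript identifiers and the reference table used here does not pair these with genes. Their functions are therefore not described, and single members are identified by their rank in the difference that chose them. The head label could not be checked against defining markers, as only 2 of 203 marker genes in 10 lists had a probe with a gene name. These were roX1 and roX2, the noncoding RNAs of the male dosage compensation complex, and all 6 of their probes were lower on Top3b26 3 than on Top3b26 2, by 0.96 to 2.39 on the log2 scale. Most candidates outside the members were lower there too, with a median of −1.14 for Top3b26 3 minus Top3b26 2 and 22.7% higher.

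The arrays differed in brightness and in sharing a slide. The median signal over the median of the negative controls was 132, 57.2 and 186 on Top3b26 1, 2 and 3, and 105, 68.4 and 94.5 on WT 1, 2 and 3. Slide 1 held Top3b26 1, WT 1 and WT 2, and slide 2 held Top3b26 2, Top3b26 3 and WT 3. No spot was saturated (0 on every array), and the number of arrays, 3 a group, limits the precision.

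On Top3b26 2 nearly all members were below background, while on Top3b26 3 they were among the brighter transcripts. Their median level was 3.20 on Top3b26 1, −5.32 on Top3b26 2 and 4.70 on Top3b26 3. In WT heads it was 2.74 on WT 1, −0.02 on WT 2 and 1.11 on WT 3. All candidates together kept nearly one level, with medians of 1.72, 2.15 and 1.61 on the Top3b26 arrays and 1.82, 2.19 and 2.10 on the WT arrays. The members thus lay above the typical candidate on Top3b26 1, Top3b26 3 and WT 1, and below it on Top3b26 2, WT 2 and WT 3. The spread between Top3b26 2 and Top3b26 3 was set by the rule. The 3 WT medians averaged 1.28 ± 1.39 (SD, n = 3), and the median on Top3b26 1 lay above each of them.

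**Figure D1:**
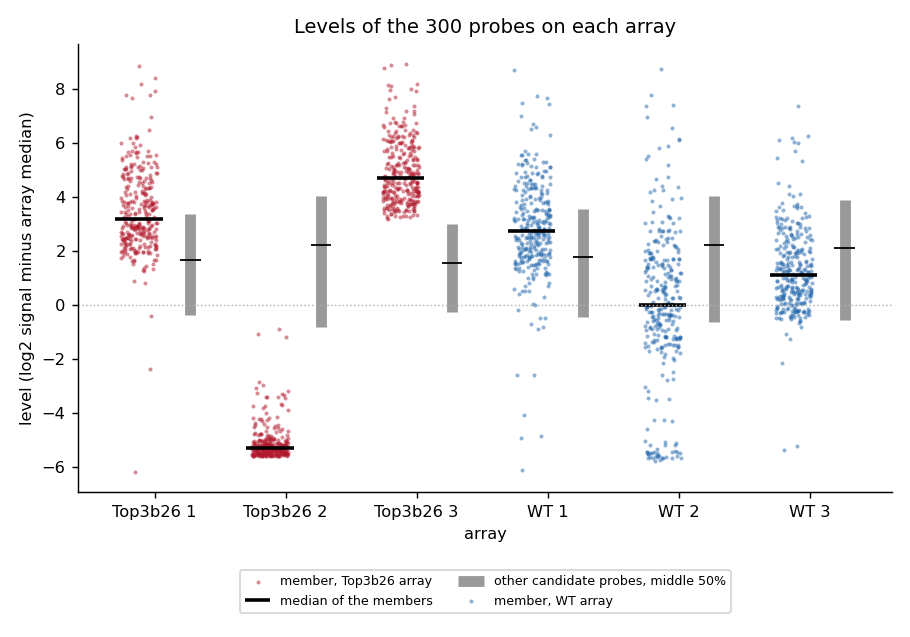
Levels (log2 signal minus the array median, vertical axis) of the 300 members on each array (points, Top3b26 arrays in red and WT arrays in blue, black line at their median), beside the middle 50% and median of the other candidate probes (gray bar and thin line). The members lie near the bottom of the scale on Top3b26 2 (median −5.32), are high on Top3b26 1 and 3, and spread widest around a median of −0.02 on WT 2.

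In processed signal the members had a median of 5064 on Top3b26 1, 5.05 on Top3b26 2 and 29608 on Top3b26 3, against 2340, 312.5 and 1597 on WT 1, WT 2 and WT 3. The median negative control gave 5.82, 4.87 and 8.61 on the Top3b26 arrays and 4.67, 6.73 and 11.1 on the WT arrays. On Top3b26 2 the typical member was therefore at the signal of the negative controls.

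Of the 300 members, all but 1 were well above background on Top3b26 1, 5 on Top3b26 2 and all on Top3b26 3, against 296 on WT 1, 257 on WT 2 and all but 2 on WT 3. Among all candidates 97.8%, 84.4% and 100% passed on the Top3b26 arrays and 96.1%, 90.8% and 95.0% on the WT arrays, where the value for Top3b26 3 is set by the rule. The levels of the 295 members below background on Top3b26 2 have no order there, and the difference from Top3b26 3 has only a bound. Set against the lowest signal that was well above background on Top3b26 2, the members were at least 88.9-fold to at least 4733-fold higher on Top3b26 3, with a median bound of 252-fold.

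The measured difference that chose the members ran from 8.79 to 14.47 on the log2 scale, with a median of 9.86, where the other candidates had a median of −1.14. The threshold fell in a continuous range. The last 2 members differed by 8.790 and 8.787, and the next 2 probes in rank, which were left out, by 8.783 and 8.779.

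Most members were missed by a single array, Top3b26 2, where the rule chose low values. Of the members, 249 were below background on Top3b26 2 and on no other array, and 41 were below background on Top3b26 2 and WT 2 only. Over all FBtr probes, 1396 were below background on Top3b26 2 alone, while each of the other arrays was the only one to miss between 10 and 146 probes. Among pairs of arrays, Top3b26 2 with WT 2 was also the most frequent, with 683 FBtr probes, and the next pair had 64. That the members were missed on Top3b26 2 was set by the rule, while their detection on the arrays outside the rule was not. By the counts over all FBtr probes, larger groups were detected everywhere except on Top3b26 2, or on Top3b26 2 and WT 2. Most members fell within these groups.

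**Figure D2:**
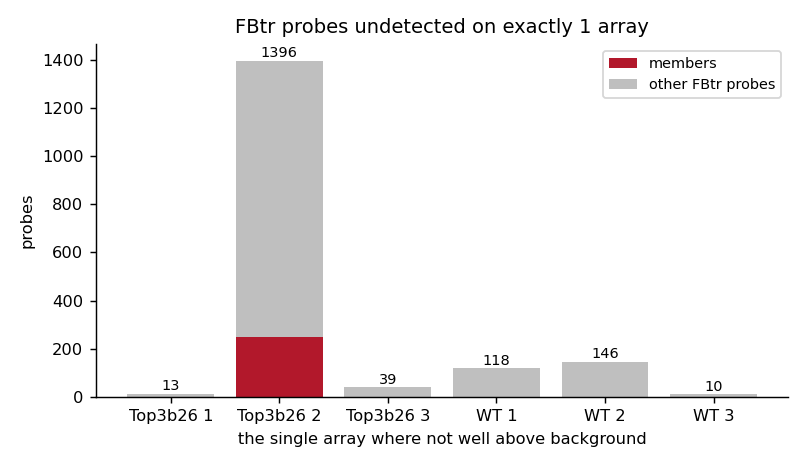
Number of FBtr probes (vertical axis) that were not well above background on exactly 1 array, by that array (horizontal axis), with the members in red and other FBtr probes in gray. Top3b26 2, where the rule chose low values for the members, alone missed 1396 probes, of which 249 were members. No other array alone missed more than 146.

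The members were often bright on Top3b26 1 and seldom bright on WT 2 and WT 3. On WT 1 they were bright a little more often than the candidates. On Top3b26 1, 141 of the 300 lay above the 75th percentile of the candidates (47%), as did 90 on WT 1 (30%), 20 on WT 2 (6.67%) and 14 on WT 3 (4.67%). The share on WT 1 was only a little above the one that this percentile sets for the candidates themselves. The member at rank 1 had levels of 8.85, −5.56 and 8.91 on Top3b26 1, 2 and 3, against 8.72, 8.75 and 7.38 on WT 1, 2 and 3. It was detected on every array but Top3b26 2, where its processed signal was 4.27 while it was 545934 on Top3b26 3. The members at ranks 2 and 4 are probes of 1 transcript, and they gave the same pattern. The probe at rank 2 had levels of 8.41, −5.03 and 8.79 on the Top3b26 arrays and 7.73, 7.79 and 6.25 on the WT arrays. The probe at rank 4 had 7.93, −5.19 and 8.19 on the Top3b26 arrays and 7.45, 7.43 and 6.01 on the WT arrays.

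The 10 members with the largest difference had levels of 5.38 to 8.85 on Top3b26 1 and of 4.78 to 8.72 on WT 1, all above the 75th percentile of the candidates on these arrays. On WT 2 and on WT 3, 8 of the 10 were above it. A large difference requires a high level on Top3b26 3, so brightness there is fixed by the rule, but levels on Top3b26 1 and WT were not used by it.

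Of the 257 transcripts, 38 had 2 or more member probes. A further 60 probes, of 53 of the 257 transcripts, were not members. Of these, 59 were well above background on Top3b26 3, their median difference between Top3b26 3 and Top3b26 2 was 7.06, and 57 differed by more than 3. On the arrays that chose the members, other probes of the same transcripts thus showed the difference too, with 1 probe at 1 or less. Within the 38 transcripts, member probes lay a median of 0.35 apart on Top3b26 1 and 0.39 on WT 2. The widest gaps were 6.98 and 7.33. The member spots were spread over the array, with 23.5%, 30.0%, 24.6% and 21.9% of the 480 spots in 4 successive blocks of rows, against 24.4%, 25.4%, 25.5% and 24.7% of the candidate spots.

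Within WT heads, which the rule did not use, the members also varied between preparations. WT 1 exceeded WT 2 by a median of 2.99, where the other candidates had a median of −0.44. In 260 of the 300 members the level was higher on WT 1 than on WT 2, as it was in 20.6% of the other candidates. WT 1 exceeded WT 3 by a median of 1.77 (278 members higher), against −0.32 in the other candidates. WT 3 exceeded WT 2 by a median of 1.07 (219 members higher), against −0.12 in the other candidates. On the 4 arrays that did not choose them, 189 members (63%) ran in the order WT 2, WT 3, WT 1, Top3b26 1 from lowest to highest, an order seen in 8.82% of the other candidates. The most frequent order of the other candidates, Top3b26 1, WT 1, WT 3, WT 2 from lowest to highest (38.3%), was held by 1 member. The order of the members' medians over all 6 arrays was the same as the order of the arrays' signal over their negative controls given above, and the part of brightness in these differences was not tested.

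**Figure D3:**
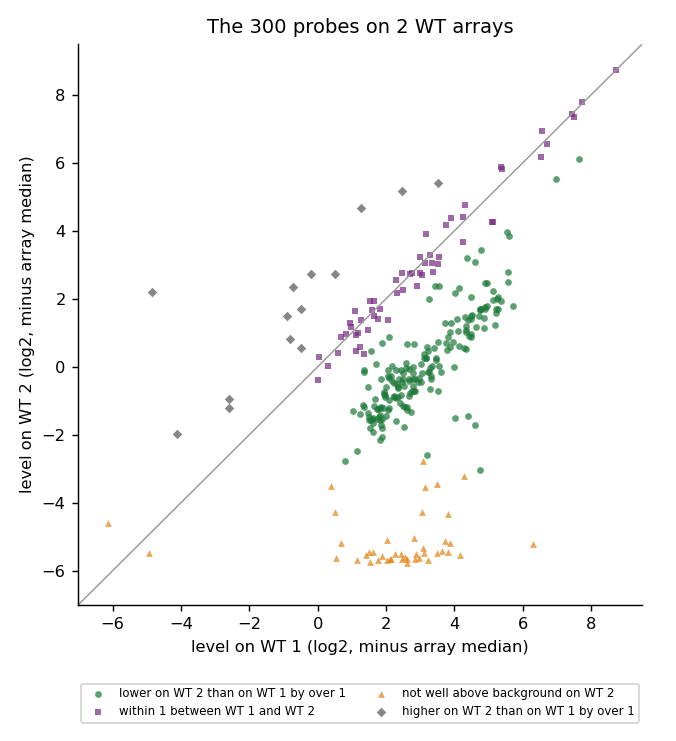
Level of each member on WT 2 (vertical axis) against its level on WT 1 (horizontal axis), both log2 signal minus the array median, with the line of equal levels and the 4 classes by color and shape. One band of 56 members follows the line, and 187 members lie more than 1 below it while still detected on WT 2.

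The members were not uniform in WT, and 4 classes were formed from their levels on WT 1 and WT 2 after these had been seen. The classes serve as a description. In 187 members (159 transcripts) the level on WT 2 was detected but lower than on WT 1 by more than 1. In 43 members (34 transcripts) the probe was not well above background on WT 2. In 56 members (51 transcripts) WT 1 and WT 2 lay within 1 of each other, and in 14 members WT 2 was higher by more than 1.

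In the class of 187 the median level was 3.17, −5.33 and 4.54 on Top3b26 1, 2 and 3, against 2.84, −0.16 and 0.93 on WT 1, 2 and 3. WT 1 was above WT 3 in all 187, by a median of 1.95, but the class was formed on a high WT 1, which enters this difference too. WT 2 was lower than WT 3 in 168 of the 187.

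In the class of 43 the median level was 2.83, −5.24 and 4.72 on Top3b26 1, 2 and 3, against 2.61, −5.47 and 1.03 on WT 1, 2 and 3. None of the 43 (0) was well above background on Top3b26 2, where the rule chose low values, and 41 were on WT 1 and WT 3. An example is the member at rank 191, with levels of 1.93, −5.12 and 4.33 on the Top3b26 arrays and 0.53, −5.62 and −0.48 on the WT arrays. WT 3, which did not define the class, was below WT 1 in 41 of the 43, by a median of 1.45.

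In the class of 56 the median level was 3.69, −5.28 and 4.94 on Top3b26 1, 2 and 3, against 2.73, 2.72 and 1.70 on WT 1, 2 and 3. Here WT 3 was the lowest of the WT arrays by the median. The members at ranks 1 to 4, 6 and 8 belonged to this class and did not share the low level on WT 2. Those at ranks 5, 9 and 10 were in the class of 187, and the one at rank 7 was in the class of 43.

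In the class of 14 the median level was 3.10, −5.28 and 5.44 on Top3b26 1, 2 and 3, against −0.60, 1.96 and 1.30 on WT 1, 2 and 3. All 14 were lower on WT 1 than on WT 3, a difference that shares WT 1 with the one that formed the class. The member at rank 54 had levels of −2.38, −5.23 and 5.80 on the Top3b26 arrays and −4.10, −1.99 and 0.27 on the WT arrays, so Top3b26 3 stood far above the other arrays.

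**Figure D4:**
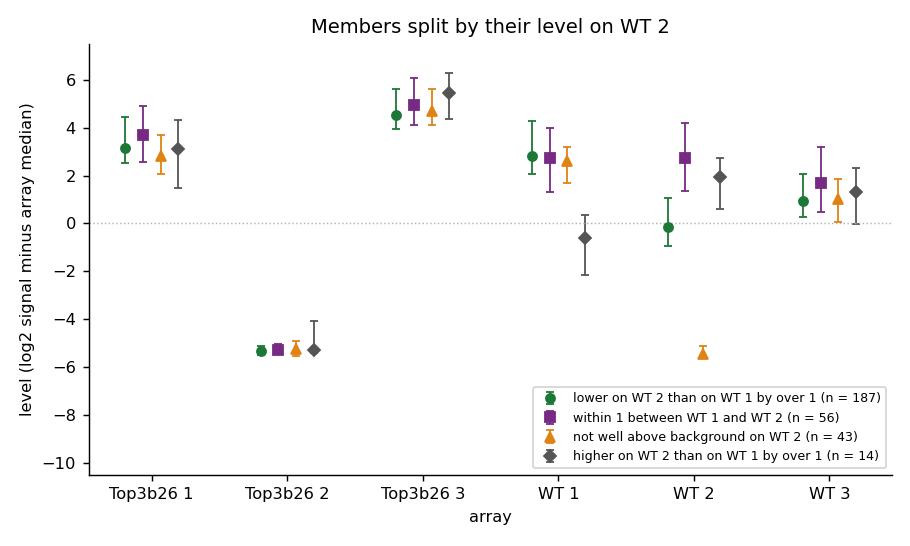
Median level with its quartiles (symbols and bars, log2 signal minus the array median, vertical axis) on each array (horizontal axis) for the 4 classes of members, formed by WT 2 against WT 1. By their medians the classes are close on the 3 Top3b26 arrays, of which the rule fixed Top3b26 2 as low and Top3b26 3 as high. They part on the arrays that formed them, with medians between −5.47 and 2.72 on WT 2 and between −0.60 and 2.84 on WT 1.

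Top3b26 1 was compared with the WT arrays, the only comparison of genotype on arrays that the rule did not use. Against the single arrays, Top3b26 1 was higher than WT 1 by a median of 0.46, than WT 2 by 3.41 and than WT 3 by 2.28, where the other candidates had medians of −0.15, −0.64 and −0.50. Against the mean of the 3 WT arrays, 295 of the 300 members were higher on Top3b26 1, with a median of 2.07 and quartiles of 1.73 and 2.33. The other candidates had a median of −0.44, with 23.8% higher. Top3b26 1 lay above all 3 WT arrays in 263 members (87.7%), against 18.1% of all probes compared in this way and 17% of the other candidates, and below all 3 in 1 member, against 57.4%. With the arrays scaled to their 75th percentile, which moved the median of all tested probes from −0.43 to −0.005, the count was 274 members, against 34.4% of all probes.

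The spread between the WT arrays was wide compared with this difference, and few members passed a test. In a limma fit of Top3b26 1 against WT over 25293 probes, with Benjamini-Hochberg adjustment over all of them, 2 of the 300 members had an adjusted p no higher than 0.05 and were called, against 0.526% of all probes tested. Both were higher in Top3b26 1, and both had entered the test only because Top3b26 1 detected them. In all, 45 members entered it in this way, and of the 255 members that were well above background on all 3 WT arrays 0 were called and 31 had an unadjusted p under 0.05. Of all probes tested, 0.13% were called higher and 0.395% lower. At an unadjusted p under 0.05 there were 33 members (32 of them higher), beside 10.7% of all probes tested. In this fit, with both directions pooled, the share of members past either threshold was thus near the share of all probes. That nearness leaves out direction, as called members were all higher, while more of all probes were called lower than higher. Among calls of a higher level, the members' share was above that of all probes. The nearness also did not hold in every alternative. By both thresholds the members' share was above that of all probes under normexp and with probes well above background on every array. It was above by both with WT 2 or WT 3 left out, and by the unadjusted p with WT 1 left out. Under the other scalings of the arrays the members' share by the unadjusted p was below that of all probes. The test assumes that the lone Top3b26 array varies as the WT arrays do. With the slide as a block the median difference was 1.91. WT 3 was the only one of these arrays on slide 2, so this block amounts to leaving out WT 3, which gave the same median.

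For both called members no WT array was well above background, nor was Top3b26 2. Their fitted differences and errors rest on WT values at background and are not given, and their adjusted p is no measure of a difference between detected levels. FBtr0100095 had levels of 3.13, −4.45 and 4.38 on Top3b26 1, 2 and 3, against −4.95, −5.46 and −5.23 on WT 1, 2 and 3. Only Top3b26 1 and Top3b26 3 detected it. It was at least 131-fold higher on Top3b26 1 than in WT, and limma gave it an adjusted p of 0.0064.

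FBtr0072294 had levels of 2.65, −5.19 and 4.09 on Top3b26 1, 2 and 3, against −6.13, −4.60 and −5.36 on WT 1, 2 and 3. Again only Top3b26 1 and Top3b26 3 detected it. It was at least 94.0-fold higher on Top3b26 1 than in WT, and limma gave it an adjusted p of 0.019. Without WT 1, or with the arrays scaled by z-transformation, to the 75th percentile or by quantiles, neither member was called, with adjusted p up to 0.089 for FBtr0100095 and 0.096 for FBtr0072294.

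The lowest member in this comparison was FBtr0085652, with levels of −6.19, −5.33 and 3.69 on Top3b26 1, 2 and 3, against −0.72, 2.35 and 1.50 on WT 1, 2 and 3. It was detected on every WT array and, among the mutant arrays, on Top3b26 3 alone, which makes it the 1 member not detected on Top3b26 1. It was at least 47.1-fold lower on Top3b26 1 than in WT, and with an adjusted p of 0.094 by limma it was not called. It was called in 3 of 10 alternatives, the slide as a block, without WT 2 and without WT 3, and not in the others. The slide block and leaving out WT 3 amount to the same contrast here. Its value on Top3b26 1 was at background, so its adjusted p is no measure of a difference between detected levels.

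**Figure D5:**
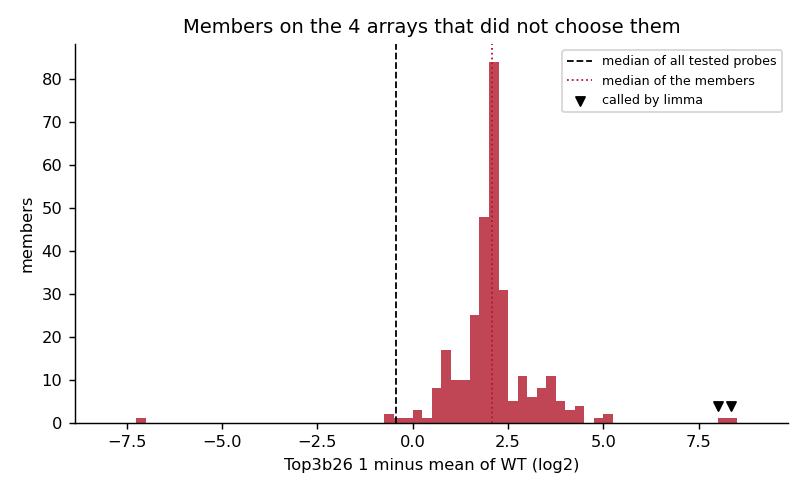
Number of members (vertical axis) by their level on Top3b26 1 minus the mean of the 3 WT arrays (log2, horizontal axis, bins of 0.25), with the median of all tested probes dashed, the median of the members dotted, and triangles at the 2 members called by limma, whose WT values were at background. Most members sit around 2.07, and the median of all tested probes is −0.43.

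Across all 6 arrays, the comparison that the study made, the arrays that chose the members enter the mutant group. Of the 300 members, 255 passed the filter on dim probes, 0 were called by limma and 0 had an unadjusted p under 0.05. Of all 23013 probes tested, 0.543% were called and 1760 had an unadjusted p under 0.05. The rule set Top3b26 2 and Top3b26 3 far apart, and this spread within the mutant group fixed low counts of members beforehand. The median difference of the 255 members between Top3b26 and WT was −0.37. Without Top3b26 2 all 300 members were tested, the median was 2.69 and 11 were called, all counts that rest in part on Top3b26 3 and are given without a reading, beside 2.44% of all probes tested (0.722% higher). Choosing members that are low on Top3b26 2 fixes an upward shift when that array is left out. Without WT 1 the median was 0.16.

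Some probes are named for cDNA clones, and the library that a clone came from was read from its prefix by general knowledge, as the files do not state it. Clones with the prefix AT were taken as adult testis and those with GH or HL as adult head. The 142 AT probes had median levels of −1.01, −4.46 and 0.26 on Top3b26 1, 2 and 3, against −1.26, −2.97 and −2.28 on WT 1, 2 and 3. They were thus lowest on Top3b26 2, then WT 2, and highest on Top3b26 3, the order of the members' medians. The 168 head probes had 0.61, 1.25 and −0.24 on the Top3b26 arrays and 0.65, 1.27 and 1.12 on the WT arrays. They did not fall on Top3b26 2 or WT 2 and were lowest on Top3b26 3. Probes of embryo, ovary and cultured cell clones did not fall there either, with medians of 0.53, 1.04 and 0.98 on Top3b26 2. Embryo and ovary probes were also lowest on Top3b26 3, at −0.60 and −0.73. Of the AT probes well above background on Top3b26 3, 8 of 128 (6.25%) exceeded the smallest difference among the members, against 4 of 154 head probes (2.60%), 2 of 193 embryo probes (1.04%) and none of 64 probes from cultured cells (0) or of 70 from ovary (0). Among all 5155 probes without a transcript identifier that were well above background on Top3b26 3, 0.834% exceeded that difference. The part of testis RNA in the members' levels was not tested.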

How the data were processed

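The intensity values are processed Cy3 signals that the authors deposited per array, per the file headers with background subtracted by Feature Extraction 11.5.1.1 and no normalization between arrays. The deposited score values, which the authors made by z-transformation of log signal over all 45019 spots of an array, were used in an alternative only. Members and lists were chosen with earlier results of these data known.

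Levels are log2 processed signal, averaged over a probe's spots, minus the array's median over the non-control probes. The authors' methods name a z-transformation, which was an alternative here because the rule that chose the members sets the scale. A probe was well above background where more than 0.5 of its spots carried that flag. Fits used limma 3.58.1 in R 4.3.3 (lmFit, eBayes, no covariate) without outlier spots, with Benjamini-Hochberg adjustment and a threshold of 0.05. A probe was tested where every array of 1 or more groups had it well above background, and the fit was tested on simulated data. An "at least" fold sets the brighter array or group against a floor on each dim array, which is the smallest level that any probe well above background had there, or the level of the probe itself if that is higher.

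Members named by identifier are the 2 called in the comparison of Top3b26 1 with WT and the lowest one. Of all probes 339 had a gene name, and none of the members did (0). The alternatives were other scalings, normexp background correction (offset 50) on the median signal, outlier spots kept, other filters on dim probes, the slide or the replicate number as a block, and single arrays left out. Flooring values at background was added after seeing the data. Nothing shows that the RNA samples of a group came from separate cultures, so p-values measure only the spread between these samples.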

Additional observations from a re-analysis of the deposited data

How the results depend on the processing

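Of the list of 300, all but 2 probes were shared under z-transformation, all but 1 under the 75th percentile, 273 under quantile normalization, 233 under normexp and 230 with values floored at background, and 5 where a probe had to be well above background on every array. Under that last filter the members' median minus the candidates' median turned to −0.080 on Top3b26 1 and −0.84 on WT 1 and was −2.68 on WT 3. The median differences between the WT arrays kept their direction under each alternative run. They ran from 2.28 to 3.46 for WT 1 minus WT 2, from 1.61 to 2.11 for WT 1 minus WT 3 and from 0.74 to 1.20 for WT 3 minus WT 2.

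The median difference of the members between Top3b26 1 and WT kept its direction (1.37 to 2.85 when single WT arrays were left out), but counts of calls were not stable. In this comparison WT 3 was alone on its slide, so the slide as a block amounts to leaving out WT 3. Under normexp, the filter on every array and the slide as a block, the share of members called exceeded the share of all tested probes. The members' share was also the higher one without WT 2 and without WT 3. It was the lower one under z-transformation and quantile normalization. Against 2 members and 133 probes called, z-transformation gave 0 and 5, the 75th percentile 0 and 0, quantile normalization 0 and 32, normexp 6 and 50, the filter to probes well above background on every array 9 and 345, and the slide as a block 35 and 237. Leaving out single WT arrays gave 0 to 35 members and 0 to 537 probes (0 and 0 without WT 1, 14 and 537 without WT 2, 35 and 249 without WT 3).

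Over 6 arrays, against 125 probes called, z-transformation gave 205, the 75th percentile 366, quantile normalization 189, normexp 82, no filter 73, the slide as a block 45, the plain test of both groups 2132 unadjusted and 1 after adjustment, and leaving out single arrays 17 to 602, with 0 to 11 members called (602 and 11 without Top3b26 2, and 33 and 76 probes without Top3b26 1 and Top3b26 3, and 40, 17 and 32 without WT 1, WT 2 and WT 3). The members' median difference was −0.37, with 0.53 under normexp and 0.27 with the slide as a block, and −2.23 to 2.69 with single arrays left out. The replicate block gave 193 probes, 0 members and a median of −0.36. Deviations of arrays that share a replicate number correlated at 0.572, 0.595 and −0.359, so the numbers were not taken to pair the arrays. Arrays numbered 1 also share a slide, as do those numbered 3. What caused these changes was not tested. Values at or below background carry no order, which limits every level on Top3b26 2.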

Other observations

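Among 5155 probes without a transcript identifier that were well above background on Top3b26 3, 43 (0.834%) exceeded the smallest difference among the members, and these include probes of 3 named genes. They were found after their values were seen. CG2127 had levels of 5.27, −5.58 and 5.90 on Top3b26 1, 2 and 3, against 4.88, 1.52 and 2.84 on WT 1, 2 and 3. The probe of exu, which encodes an RNA-binding protein needed to localize bicoid mRNA in the oocyte, had 4.02, −5.52 and 5.14 on the Top3b26 arrays and 3.28, 0.60 and 1.68 on the WT arrays. Both thus ran in the order of most members on the arrays outside the rule, with WT 2 lowest and Top3b26 1 highest. The noncoding RNA lncRNA:CR32661 had a pair of probes in this range. One of them had levels of 3.19, −4.96 and 4.66 on the Top3b26 arrays and 3.17, −0.11 and 1.26 on the WT arrays.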
